A study of Mus musculus with 6 samples.

Results

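The circadian clock genes examined here were *Arntl*, *Clock*, *Npas2*, *Per1*, *Per2*, *Per3*, *Cry1*, *Cry2*, *Ciart* and *Dbp*, found by their gene symbols as 10 of the 54532 genes in the deposited liver RNA-Seq table. The mice were 3 controls and 3 g*Spns1*-cKO animals, with 1 library each. *Spns1* encodes a lysosomal transporter of lysophospholipids. In the g*Spns1*-cKO mice, floxed *Spns1* alleles (*Spns1* fl/fl) were combined with a tamoxifen-dependent Cre recombinase expressed from the Rosa26 locus (Rosa26Cre-ERT2), on a C57BL/6 background. Tamoxifen was injected intraperitoneally during the second and the third postnatal week, and the deletion was directed at the whole body and not at the liver alone. The labels call the controls wild type, whereas the methods of the study use *Spns1* fl/fl littermates as controls of this line. The study describes those controls as without Cre, and whether they received tamoxifen is not clearly stated. The age of the mice at collection of these livers, their sex and the time of day are not given in the sources used here.

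The mammalian clock is a transcriptional feedback loop. ARNTL (BMAL1) pairs with CLOCK or its paralog NPAS2 and binds E-box sequences, which switches on the period (*Per*) and cryptochrome (*Cry*) genes, *Ciart* and *Dbp*. PER and CRY proteins, and CIART (CHRONO), return to repress that pair. In mouse liver the *Arntl* and *Npas2* transcripts peak at the opposite side of the day from *Dbp* and *Per3*. Because each liver was sampled once and the time of day is not given, a shift in the timing of the loop and a change in the level of its transcripts cannot be told apart here.

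The letters that clock factors are known to bind were looked up in the RefSeq promoter windows of GRCm38.p6. Each covers 250 bases before to 50 bases after a transcript start. Of the 10 genes, 9 had a window, and *Per2* had none and was not searched. Both strands of 32851 windows were searched for the E-box CACGTG, its variant CACGTT, the D-boxes TTATGTAA and TTACGTAA, and the ROR element, TAGGTCA with AA and any 1 base before it. The E-box was in 7.15% of all windows and in those of *Ciart*, *Cry1* and *Per1*. The variant E-box was in 4.68% of all windows and in those of *Cry1* and *Cry2*. The D-box TTATGTAA was in 0.938% of all windows and in that of *Per3*, and TTACGTAA was in 0.119% of all windows and in none of these 9 genes. The ROR element, the site of the activating RORs and the repressing REV-ERBs, was in 0.219% of all windows and in that of *Arntl*, and its core TAGGTCA, which lies inside it, was in 2.61% and in no other of the 9 genes. *Clock*, *Npas2* and *Dbp* held none of these letters in their windows, and sequence outside the windows was not searched. The following stretches are shown because they hold the matches, with the motif in capitals.
Ciart: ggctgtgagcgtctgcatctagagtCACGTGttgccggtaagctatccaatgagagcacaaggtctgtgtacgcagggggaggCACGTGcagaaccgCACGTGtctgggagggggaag
Cry1: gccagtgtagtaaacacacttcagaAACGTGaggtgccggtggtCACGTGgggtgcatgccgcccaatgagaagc
Cry2: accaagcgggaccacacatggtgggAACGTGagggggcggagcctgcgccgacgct
Per1: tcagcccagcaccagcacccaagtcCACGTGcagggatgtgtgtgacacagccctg
Per3: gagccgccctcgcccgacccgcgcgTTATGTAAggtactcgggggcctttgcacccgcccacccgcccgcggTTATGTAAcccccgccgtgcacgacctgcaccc
Arntl: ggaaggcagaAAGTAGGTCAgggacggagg

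The *Ciart* stretch (chr3:95882252-95882369, minus strand) lies directly upstream of the annotated gene and holds the E-box 3 times. The *Cry1* stretch (chr10:85185084-85185158, minus strand) holds the variant E-box and the E-box, and the *Cry2* stretch (chr2:92434205-92434260, minus strand) holds the variant alone. AACGTG in both is CACGTT read from the other strand. The *Per1* stretch (chr11:69098758-69098813, plus strand) lies before an alternative start, inside the annotated gene but outside its exons. The *Per3* stretch (chr4:151044791-151044895, minus strand) lies upstream of the gene and holds the D-box 2 times. The *Arntl* stretch (chr7:113207528-113207557, plus strand) lies within an exon, after the start. None of the 9 genes with a window held a ROR element when only the 250 bases before the start were searched.

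**Figure D1:**
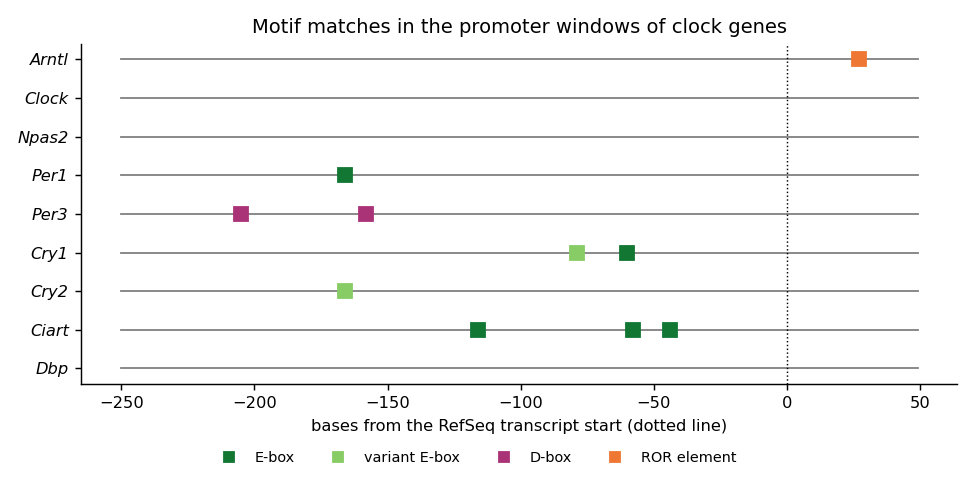
Motif matches in the promoter windows of 9 clock genes, by distance from the RefSeq transcript start in bases (x axis), with 1 row per gene and the windows of genes with several starts laid over each other. *Ciart* holds 3 E-boxes, *Per3* holds 2 D-boxes, and the ROR element of *Arntl* sits after the start.

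The libraries held between 30350002 and 35295611 counts. Levels are given as CPM, the counts scaled to a common library total after TMM normalization, with mean ± SD over 3 mice. Differences are log2 fold changes of g*Spns1*-cKO over control with their standard error (SE), and adjusted p-values come from the quasi-likelihood test of edgeR (threshold 0.05), with Benjamini-Hochberg adjustment over 15449 genes. *Spns1* itself was at 35.9, 50.7 and 34.6 CPM in control livers and 17.8, 30.6 and 17.8 CPM in g*Spns1*-cKO livers, which is a log2 fold change of -0.87 (SE 0.25, adjusted p = 0.0300, edgeR). The groups did not overlap for *Spns1*, but its call was lost without control mouse 2 or without g*Spns1*-cKO mouse 1 or 3, at adjusted p = 0.0785 to 0.0910 (edgeR), and with library size scaling (log2 fold change -0.43, adjusted p = 0.213, edgeR) or upper-quartile scaling (-0.74, adjusted p = 0.0635, edgeR). The counts are per gene, so that the loss of the floxed exon itself is not seen in them. Of all tested genes, 41.8% passed the threshold, 21.3% as higher and 20.5% as lower in g*Spns1*-cKO livers. The first principal component held 74.6% of the variance and separated the groups.

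The library of g*Spns1*-cKO mouse 1 stood apart from those of mice 2 and 3 in the clock genes. It was at least 2-fold away from both in *Arntl*, *Cry1* and *Dbp*, which is 3 of the 9 tested clock genes, and in 2.71% of all tested genes. No other library was that far from its group in any tested clock gene, although among all genes control mice 1 to 3 were so in 2.73%, 3.00% and 3.01%. For g*Spns1*-cKO mice 2 and 3 that share was 1.70% and 0.712%, so mouse 1 had the highest share of its group over all genes as well. Mouse 1 was also the most distant library of its group in 7 of the 9, against 43.6% of all genes. Values of the clock genes, of their named regulators and outputs, and list counts that differ are therefore also given without g*Spns1*-cKO mouse 1, where 15875 genes were tested and 40.5% passed, 20.2% as higher and 20.3% as lower.

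Of the 10 clock genes, 9 had enough counts to be tested and *Npas2* did not. *Arntl* rose, *Ciart* and *Dbp* fell, and the other 6 did not pass the threshold, so that 3 of 9 passed where 41.8% of all tested genes did. The same 3 genes were those of the 9 whose groups did not overlap, beside 54.1% of all tested genes. The median log2 fold change of the 9 was -0.05, beside 0.01 over all tested genes. Without g*Spns1*-cKO mouse 1, *Arntl*, *Per2* and *Cry1* passed as higher and *Ciart* and *Dbp* as lower. That mouse was singled out by its clock gene values, and leaving it out narrows the spread of the genes in which it stood apart. The calls, SEs and adjusted p-values without it describe the other mice and are no independent support.

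**Figure D2:**
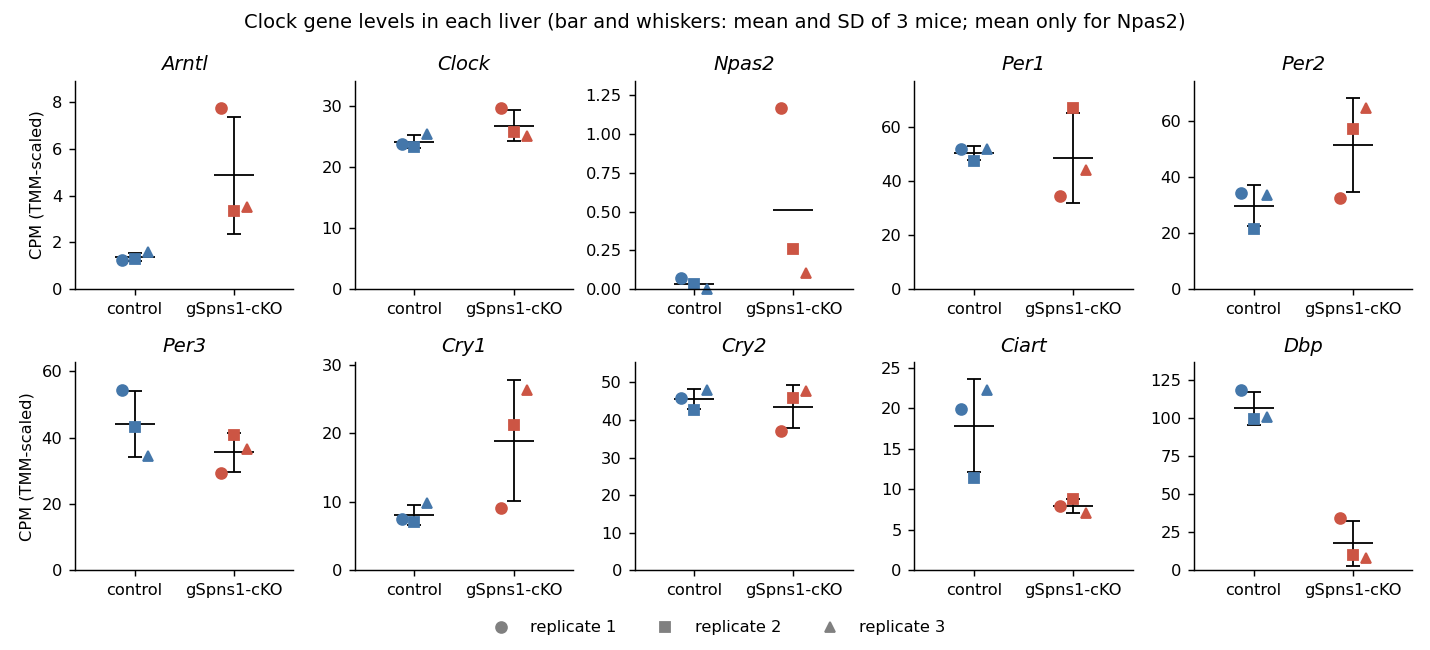
Levels of the 10 clock genes in each liver (y axis, CPM over the TMM-scaled library size, each panel on its own linear scale from 0), with control mice in blue, g*Spns1*-cKO mice in red, symbols for replicates 1 to 3, and bars and whiskers for the mean and SD of 3 mice (mean only for *Npas2*). In the red points, replicate 1 is the highest for *Arntl*, *Clock*, *Npas2* and *Dbp* and the lowest for *Per1*, *Per2*, *Per3*, *Cry1* and *Cry2*.

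Among the activators, *Arntl* (ENSMUSG00000055116, chr7:113207465-113314126, plus strand), whose product is the obligate partner in the activating pair, was at 1.24, 1.30 and 1.58 CPM in control livers and at 7.76, 3.34 and 3.51 CPM in g*Spns1*-cKO livers. All 3 g*Spns1*-cKO livers lay above all controls, with mouse 1 the highest. The means were 1.37 ± 0.18 and 4.87 ± 2.5 CPM (SD, n = 3 each). *Arntl* was thus higher by 1.82 on the log2 scale (SE 0.35, adjusted p = 0.00271, edgeR), and without mouse 1 it was 1.31 (SE 0.27, adjusted p = 0.00306, edgeR). In controls these levels rested on only 35, 40 and 40 counts.

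*Npas2* (ENSMUSG00000026077, chr1:39193731-39363236, plus strand), the paralog that can stand in for CLOCK, had 2, 1 and 0 counts in control libraries and 42, 10 and 4 counts in g*Spns1*-cKO libraries. The groups did not overlap, and mouse 1 held most of the counts. Over the groups this was 3 against 56 counts, a ratio of 13.8 after scaling with an exact 95% counting interval of 4.50 to 69.1. Without mouse 1 the 14 remaining counts gave a ratio of 5.06 (1.41 to 27.5). These intervals cover counting error only and not the spread between mice. When every gene with a count was tested, 26590 in all, *Npas2* had an adjusted p of 0.000288 (edgeR).

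*Clock* (ENSMUSG00000029238, chr5:76209868-76304792, minus strand), which encodes the usual partner of ARNTL, was at 23.8, 23.3 and 25.4 CPM in control livers and 29.6, 25.6 and 25.1 CPM in g*Spns1*-cKO livers. The groups overlapped and mouse 1 was again the highest. The log2 fold change of 0.15 did not pass (SE 0.11, adjusted p = 0.309, edgeR), and without mouse 1 it was 0.07 (adjusted p = 0.674, edgeR).

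Of the repressors, *Cry1* and *Per2* were higher than in every control in g*Spns1*-cKO mice 2 and 3 but not in mouse 1. *Cry1* (ENSMUSG00000020038, chr10:85131700-85185064, minus strand), a strong repressor of the activating pair, was at 7.43, 7.11 and 9.80 CPM in control livers and 9.15, 21.2 and 26.4 CPM in g*Spns1*-cKO livers. Mice 2 and 3 lay above all controls while mouse 1 lay among them. The difference was 1.22 on the log2 scale (SE 0.40, adjusted p = 0.0524, edgeR). Without mouse 1 it was 1.55 (SE 0.17, adjusted p = 6.23e-05, edgeR).

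*Per2* (ENSMUSG00000055866, chr1:91415982-91459324, minus strand), a core period gene that also responds to acute signals, had the same arrangement. It was at 34.4, 21.3 and 33.7 CPM in control livers and 32.6, 57.2 and 64.6 CPM in g*Spns1*-cKO livers, with mouse 1 inside the control range and mice 2 and 3 above it. With all mice the log2 fold change was 0.79 (SE 0.31, adjusted p = 0.0842, edgeR). Without mouse 1 it was 1.03 (SE 0.20, adjusted p = 0.00401, edgeR).

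*Per1* (ENSMUSG00000020893, chr11:69095217-69109960, plus strand), the other period gene known for acute induction, was at 51.8, 47.2 and 51.6 CPM in control livers and 34.4, 66.9 and 44.1 CPM in g*Spns1*-cKO livers. The g*Spns1*-cKO livers lay on both sides of the controls, with SDs of 16.7 and 2.6 CPM around means of 48.4 and 50.2 CPM. Its log2 fold change was -0.05 (SE 0.22, adjusted p = 0.872, edgeR), and its sign turned with the scaling and without mouse 1 (0.14, adjusted p = 0.516, edgeR) or mouse 3 of the g*Spns1*-cKO group.

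*Per3* (ENSMUSG00000028957, chr4:151003652-151044665, minus strand), a period gene with a strong rhythm in liver, was at 54.5, 43.3 and 34.5 CPM in control livers and 29.4, 40.9 and 36.7 CPM in g*Spns1*-cKO livers. The groups overlapped, and the log2 fold change of -0.31 did not pass (SE 0.18, adjusted p = 0.196, edgeR), while with every gene that had a count tested it passed as lower (-0.32, adjusted p = 0.0481, edgeR). Without mouse 1 it was -0.19 (adjusted p = 0.422, edgeR). *Cry2* (ENSMUSG00000068742, chr2:92403646-92434043, minus strand), the paralog of *Cry1*, was at 46.0, 42.7 and 48.1 CPM in control livers and 37.1, 45.9 and 47.6 CPM in g*Spns1*-cKO livers. Its groups overlapped as well, at -0.07 (SE 0.12, adjusted p = 0.686, edgeR) and at 0.03 without mouse 1 (adjusted p = 0.829, edgeR). The signs of *Per3* and *Cry2* also turned under library size scaling.

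*Ciart* (ENSMUSG00000038550, chr3:95878503-95882251, minus strand), which encodes a repressor that binds ARNTL, was the only repressor of the 6 to pass. It was at 19.9, 11.4 and 22.3 CPM in control livers and 7.98, 8.81 and 7.10 CPM in g*Spns1*-cKO livers. All g*Spns1*-cKO livers lay below all controls, mouse 1 between the other two. *Ciart* had a log2 fold change of -1.16 (SE 0.23, adjusted p = 0.00412, edgeR), and without mouse 1 of -1.17 (SE 0.29, adjusted p = 0.0162, edgeR).

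*Dbp* (ENSMUSG00000059824, chr7:45705088-45710203, plus strand) encodes a PAR bZIP factor that binds D-boxes and carries the clock's signal to liver genes. It was at 119, 99.8 and 101 CPM in control livers and 34.8, 10.3 and 8.39 CPM in g*Spns1*-cKO livers. Every g*Spns1*-cKO liver lay below every control, and mouse 1 was the one closest to them. The means were 107 ± 10.8 and 17.8 ± 14.7 CPM (SD, n = 3 each). The log2 fold change was -2.58 (SE 0.65, adjusted p = 0.0348, edgeR), and without mouse 1 it was -3.51 (SE 0.16, adjusted p = 9.71e-08, edgeR). The call was lost when any control mouse, or g*Spns1*-cKO mouse 2 or 3, was left out, with adjusted p-values between 0.0664 and 0.104 (edgeR), while the log2 fold change stayed between -2.24 and -2.64 there.

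**Figure D3:**
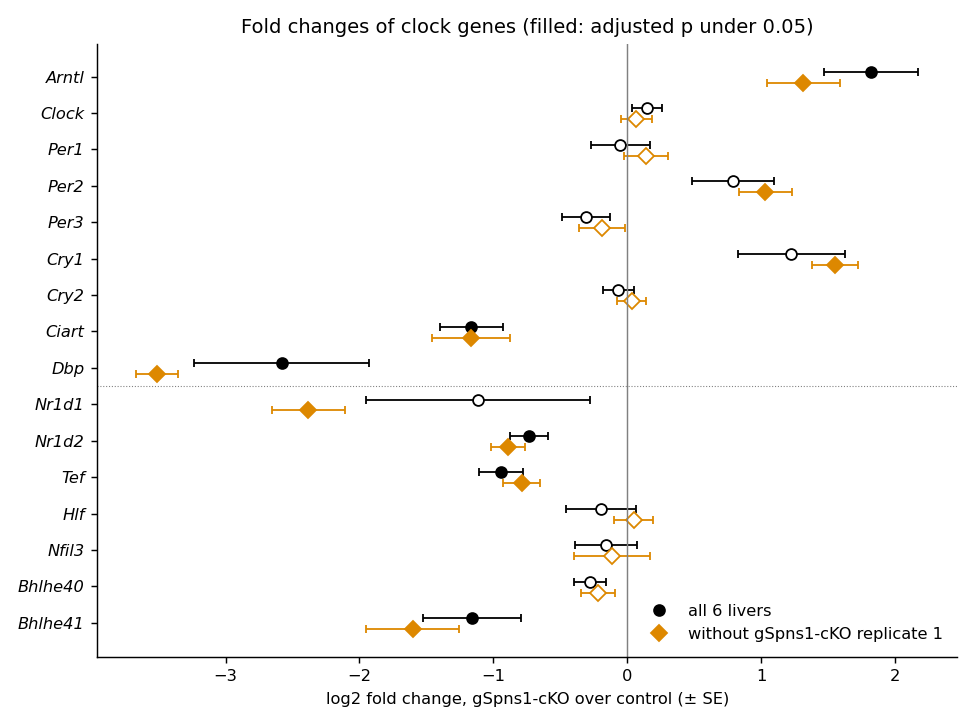
Log2 fold changes (x axis, g*Spns1*-cKO over control, bars for SE) of the 9 tested clock genes and, below the dotted line, of 7 regulators, from all 6 livers (circles) and without g*Spns1*-cKO mouse 1 (diamonds), filled where the adjusted p was under 0.05. *Cry1*, *Per2* and *Dbp* move away from 0 without that mouse, and *Arntl* moves toward it.

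Some clock genes overlap other genes, and whether the counting used strand is not given in the sources used here. *Dbp* overlaps *Sphk2* on the opposite strand, with 1574, 1949 and 1026 counts in control and 1467, 1024 and 1008 counts in g*Spns1*-cKO libraries. *Ciart* overlaps C920021L13Rik, which had between 24 and 73 counts in any library. *Cry2*, *Arntl* and *Npas2* also overlap genes on the other strand, and *Per3* and *Clock* overlap genes on their own strand.

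Per kilobase of gene length, *Dbp* had the highest level in control livers at 35.6 ± 3.59 CPM per kb (SD, n = 3). It was followed by *Per1* at 8.91, *Ciart* at 7.90 and *Cry2* at 7.21 CPM per kb, neighbours whose ranges over mice overlapped, and by *Per2* at 5.08 and *Per3* at 4.59 CPM per kb, which overlapped as well. *Cry1* at 2.43, *Clock* at 1.76 and *Arntl* at 0.183 CPM per kb followed without overlap, and *Npas2* was the lowest. In g*Spns1*-cKO livers the order began with *Per2* at 8.79, *Per1* at 8.60, *Cry2* at 6.89, *Dbp* at 5.96 and *Cry1* at 5.66 CPM per kb, and ended with *Per3* at 3.71, *Ciart* at 3.52, *Clock* at 1.95, *Arntl* at 0.647 and *Npas2* at 0.106 CPM per kb. There the ranges of each pair of neighbours from *Per2* down to *Ciart* overlapped.

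Ratios of clock genes within a library do not depend on the scaling between libraries. The log2 ratio of *Dbp* over *Arntl*, transcripts of opposite phase in liver, was 7.91, 7.59 and 7.33 in controls and 3.49, 2.96 and 2.59 in g*Spns1*-cKO livers, from counts per kb. The groups were far apart by this measure and mouse 1 lay close to the other g*Spns1*-cKO mice, with means of 7.61 ± 0.29 and 3.01 ± 0.46 (SD, n = 3 each). The difference was -4.59, and -4.83 without mouse 1. It is built from *Dbp* and *Arntl* as described above and is a description, with no test.

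For *Ciart* over *Arntl* the log2 ratio was 5.73, 4.86 and 5.55 in controls and 1.78, 3.14 and 2.75 in g*Spns1*-cKO livers. For *Per3* over *Arntl* it was 5.10, 4.71 and 4.09 in controls and 1.57, 3.26 and 3.03 in g*Spns1*-cKO livers. Neither ratio overlapped between groups, and mouse 1 was the lowest in both. Both share *Arntl*, whose groups did not overlap, whereas those of *Per3* alone did. They are descriptions too and add no separate support. For *Per2* over *Arntl* it was 5.15, 4.40 and 4.77 in controls and 2.43, 4.46 and 4.56 in g*Spns1*-cKO livers, where only mouse 1 lay outside the control range. The *Cry1* over *Cry2* log2 ratio was -1.71, -1.67 and -1.37 in controls and -1.10, -0.19 and 0.07 in g*Spns1*-cKO livers, all above the controls. *Npas2* over *Clock* was -6.87 and -7.97 in control mice 1 and 2, could not be formed in control mouse 3, where *Npas2* had 0 counts, and was -3.15, -5.10 and -6.43 in g*Spns1*-cKO livers.

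**Figure D4:**
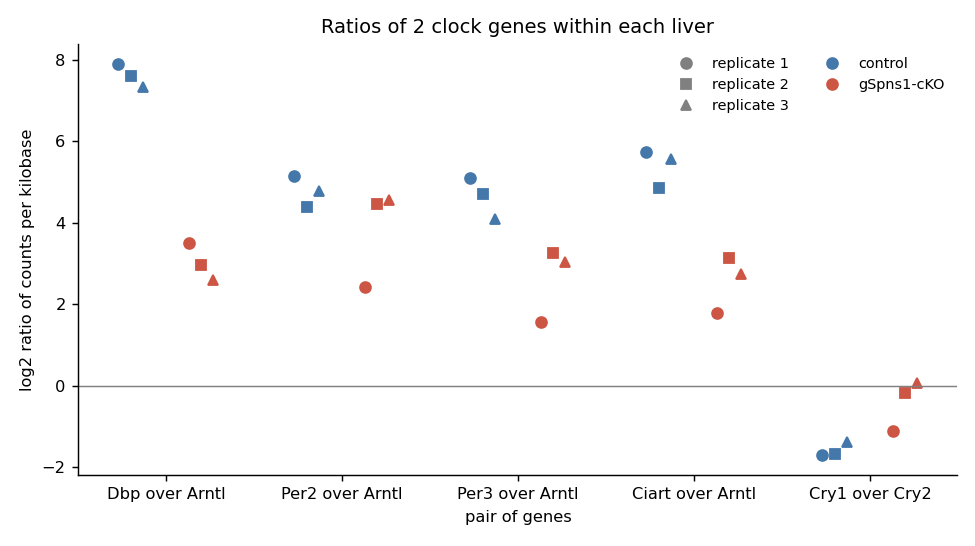
Log2 ratios of 5 pairs of clock genes within each liver (y axis, from counts per kb), with control mice in blue, g*Spns1*-cKO mice in red, symbols for replicates 1 to 3 and a line at 0. *Dbp* over *Arntl* lies between 7.33 and 7.91 in controls and is 2.59 to 3.49 in g*Spns1*-cKO livers, and *Per2* over *Arntl* overlaps between groups apart from mouse 1.

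The genes around the loop were read from a list of 27 other clock regulators, of which 26 were tested. Of these, 2 rose, 6 fell and 18 did not pass, with a median log2 fold change of -0.13, beside 21.3% higher and 20.5% lower over all tested genes. Without mouse 1, 3 passed as higher and 7 as lower. Among the nuclear receptors that bind the ROR element, the repressor *Nr1d2* (REV-ERBβ) was at 129, 107 and 124 CPM in control livers and 87.1, 65.6 and 64.1 CPM in g*Spns1*-cKO livers. It fell by 0.73 on the log2 scale (SE 0.14, adjusted p = 0.00239, edgeR), with no overlap, and was at -0.89 without mouse 1. With library size scaling the call was lost (-0.29, adjusted p = 0.0955, edgeR). Its paralog *Nr1d1* (REV-ERBα) was at 88.3, 50.01 and 55.4 CPM in control livers and 64.7, 12.1 and 12.7 CPM in g*Spns1*-cKO livers. Mouse 1 lay within the controls and mice 2 and 3 well below them. The log2 fold change of *Nr1d1* was -1.11 (SE 0.84, adjusted p = 0.353, edgeR) with mouse 1 and -2.38 (SE 0.27, adjusted p = 0.00084, edgeR) without it. Mouse 1 was at least 2-fold from both other g*Spns1*-cKO mice in 3 of the 26 regulators, *Nr1d1* and *Usp2* among them.

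Among the D-box factors, *Tef*, a PAR bZIP relative of *Dbp*, was at 273, 282 and 321 CPM in control livers and 117, 183 and 155 CPM in g*Spns1*-cKO livers. It fell by 0.94 (SE 0.17, adjusted p = 0.00142, edgeR) on the log2 scale without overlap, and was at -0.79 without mouse 1. The third member of that family, *Hlf*, was at 63.0, 62.9 and 83.0 CPM in control livers and 38.4, 65.7 and 78.4 CPM in g*Spns1*-cKO livers and did not pass (log2 fold change -0.19, adjusted p = 0.589, edgeR, and 0.05 without mouse 1). *Nfil3*, which encodes the D-box repressor, was at 15.4, 21.9 and 13.8 CPM in control livers and 14.2, 11.6 and 19.995 CPM in g*Spns1*-cKO livers and did not pass (-0.16, adjusted p = 0.623, edgeR, and -0.11 without mouse 1). For *Hlf* and *Nfil3* the groups overlapped, and their signs turned under library size scaling.

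The E-box repressor gene *Bhlhe41* (DEC2) was at 4.98, 2.73 and 2.96 CPM in control livers and 2.45, 1.02 and 1.32 CPM in g*Spns1*-cKO livers. It fell by 1.16 on the log2 scale (SE 0.36, adjusted p = 0.0279, edgeR), a call that was lost without control mouse 1 or without g*Spns1*-cKO mouse 2 or 3, at adjusted p = 0.0747 to 0.103 (edgeR), and with library size scaling (-0.72, adjusted p = 0.120, edgeR). Without g*Spns1*-cKO mouse 1 it was at -1.60. *Bhlhe40* (DEC1) was at 183, 170 and 173 CPM in control livers and 131, 164 and 138 CPM in g*Spns1*-cKO livers and did not pass (-0.28, adjusted p = 0.0902, edgeR, and -0.22 without mouse 1), although its groups did not overlap. The deubiquitinase gene *Usp2* was at 71.1, 86.3 and 103 CPM in control livers and 14.2, 39.2 and 30.1 CPM in g*Spns1*-cKO livers. *Usp2* fell by 1.64 on the log2 scale (SE 0.39, adjusted p = 0.0227, edgeR), with no overlap. Without control mouse 2 or 3 or g*Spns1*-cKO mouse 3 its adjusted p was 0.0593 to 0.0783 (edgeR), with every gene that had a count tested it was 0.0736 (edgeR), and without g*Spns1*-cKO mouse 1 the log2 fold change was -1.33 and the call held.

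Among the kinases that set the stability of PER and other clock proteins, *Csnk1e*, which encodes casein kinase 1 epsilon, was at 5.66, 4.94 and 4.19 CPM in control livers and 9.87, 12.7 and 11.6 CPM in g*Spns1*-cKO livers. It rose by 1.21 (SE 0.17, adjusted p = 0.00041, edgeR), and by 1.30 without mouse 1. The casein kinase 2 subunit *Csnk2b* fell by 0.46 (SE 0.10, adjusted p = 0.00394, edgeR) on the log2 scale, from 93.6 to 98.9 CPM in controls to 68.8 to 72.3 CPM, with -0.46 also without mouse 1. With library size scaling it was at -0.01 (adjusted p = 0.914, edgeR). The AMPK subunit *Prkab1* was the other gene of the list that rose, by 0.35 (adjusted p = 0.0359, edgeR), or 0.43 without mouse 1. That call was lost when any of the other 5 mice was left out, at adjusted p = 0.0790 to 0.141 (edgeR), and with a replicate block (adjusted p = 0.0508, edgeR).

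**Figure D5:**
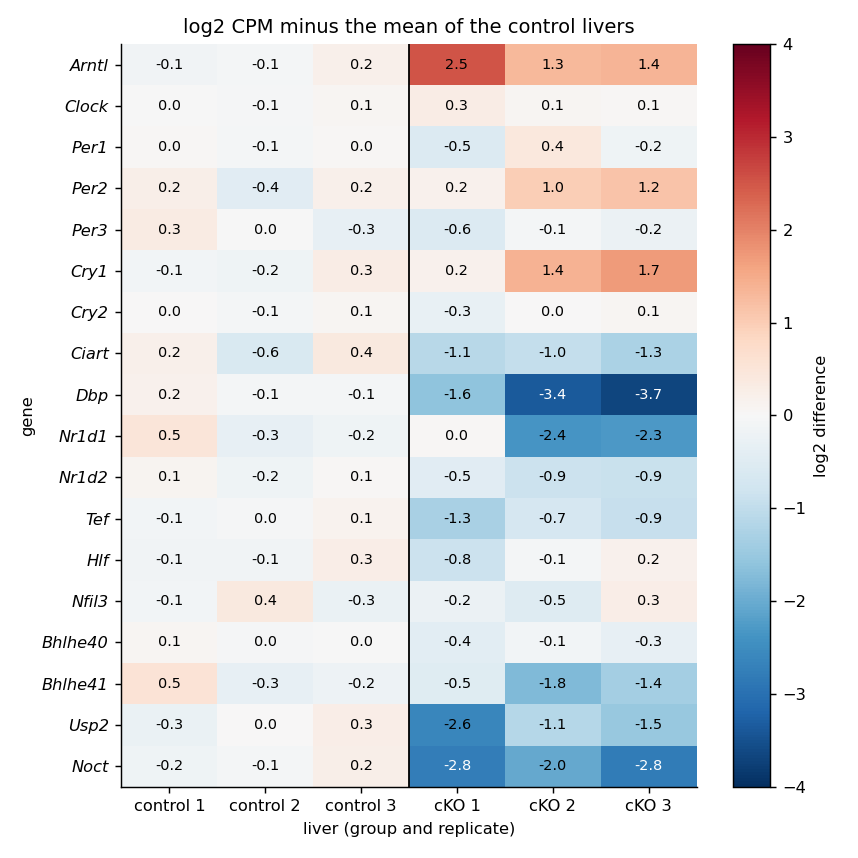
Log2 CPM of clock genes and of regulators and outputs around them in each of the 6 livers (columns), with each gene (row) centred on the mean of the control livers, so that colours and printed values are differences in log2 CPM. The column of g*Spns1*-cKO mouse 1 departs from those of mice 2 and 3 in *Arntl*, *Cry1*, *Dbp* and *Nr1d1*.

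Downstream, 20 liver genes known to cycle under the clock were all tested: 2 rose, 8 fell and 10 did not pass, with a median log2 fold change of -0.47, beside the 21.3% higher and 20.5% lower over all tested genes. Without mouse 1, 3 passed as higher and 7 as lower. *Noct*, which encodes the rhythmic phosphatase nocturnin, was at 127, 137 and 168 CPM in control livers and 21.0, 34.8 and 20.8 CPM in g*Spns1*-cKO livers. It fell by 2.49 (SE 0.22, adjusted p = 9.9e-05, edgeR) on the log2 scale, and was at -2.38 without mouse 1. *Elovl3*, a fatty acid elongase gene with a strong rhythm in male liver, had 4150, 1777 and 2043 counts in control libraries and 59, 5 and 4 counts in g*Spns1*-cKO libraries (log2 fold change -7.29, SE 1.07, adjusted p = 0.00766, edgeR, and -9.64 without mouse 1, where the remaining counts are the 5 and 4). *Hsd3b5*, a male-biased steroid dehydrogenase gene of a family with close paralogs, had 7088, 5249 and 2910 counts against 6, 2 and 2 counts. In all 6 libraries the Y-linked *Ddx3y* had at least 1731 counts and *Xist* at most 5.

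*Pck1*, the rate-limiting enzyme gene of gluconeogenesis, fell by 1.63 (SE 0.33, adjusted p = 0.0052, edgeR) on the log2 scale, with -1.64 without mouse 1. The triglyceride lipase gene *Pnpla2* fell by 0.88 (SE 0.14, adjusted p = 0.000731, edgeR), with -0.83 without mouse 1. The iron uptake receptor gene *Tfrc* rose by 3.20 (SE 0.25, adjusted p = 6.73e-05, edgeR), from 11.3 to 17.4 CPM in controls to 97.0 to 167 CPM, with 3.36 without mouse 1. *Nampt*, which encodes the NAD salvage enzyme and was the other gene of the list that rose, was 0.44 higher (adjusted p = 0.0233, edgeR) and 0.56 higher without mouse 1. Its call was lost without control mouse 1 or 2 or g*Spns1*-cKO mouse 2 or 3, at adjusted p = 0.0653 to 0.0955 (edgeR).

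Hormone and feeding signals are known to reset the liver clock, so lists of their target genes were read beside it, and their part in the clock gene values was not tested. Their counts stand beside 21.3% higher and 20.5% lower over all tested genes. Of 10 glucocorticoid-responsive genes, *Sgk1* rose by 1.39 and *Errfi1* (-0.73), *Tsc22d3* (-0.65) and *Tat* (-0.55) fell, with a median of -0.42. Of 9 fasting genes, *Igfbp1* (3.56), *Ppargc1a* (1.30) and *Pdk4* (1.11) rose and 5 fell, among them *Angptl4* (-2.86) and *Fgf21* (-1.28). Of 7 feeding genes, *Acaca* rose by 1.13 and 1 fell, all on the log2 scale. Of 10 immediate early genes, 6 rose and 4 did not pass, with *Fos* at 2.61, *Atf3* at 2.48, *Fosb* at 2.13, *Ier3* at 1.41, *Jun* at 1.24 and *Myc* at 1.02. Single mice decided some of these calls: that of *Tsc22d3* was lost without control mouse 3 or g*Spns1*-cKO mouse 3, *Tat* also without control mouse 1, *Acaca* without control mouse 2 or 3 or g*Spns1*-cKO mouse 1 or 3, and *Fosb* without control mouse 2 or g*Spns1*-cKO mouse 2 or 3, at adjusted p = 0.0510 to 0.134 (edgeR). With library size scaling the calls of *Errfi1*, *Tsc22d3* and *Tat* were lost, at adjusted p = 0.210 to 0.613 (edgeR).

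Marker genes of cell types also moved between the groups, and their part in the clock gene values was not tested. Their counts stand beside the same 21.3% higher and 20.5% lower over all tested genes. In whole liver, fewer cells of a type and less RNA per cell cannot be told apart. All summed CPM depend on the scaling, with TMM factors of 0.83 to 0.87 in control and 1.16 to 1.18 in g*Spns1*-cKO libraries. The summed CPM of 7 hepatocyte markers, led by *Alb*, was 100522 to 112545 in controls and 61152 to 69751 in g*Spns1*-cKO livers. Of these 7, 3 were lower and the other 4 did not pass the threshold. Among those 4, *Cps1* went the other way without overlap, at 2492 to 3162 CPM in controls and 3454 to 3955 CPM in g*Spns1*-cKO livers. Macrophage markers were higher in 7 of 7 genes, at 169 to 273 against 635 to 936 summed CPM, and cholangiocyte markers in 5 of 5, at 44.2 to 62.9 against 170 to 279. Endothelial markers were higher in 5 of 6 (97.5 to 110 against 173 to 208 summed CPM), stellate cell markers in 5 of 6 (81.8 to 103 against 165 to 230) and neutrophil markers in 3 of 3 tested (2.99 to 4.77 against 8.84 to 14.3). Of 8 lymphocyte markers 1 was higher and 1 lower, at 4.86 to 6.17 against 7.09 to 7.43 summed CPM. The 3 tested proliferation markers were at adjusted p above the threshold, at 2.47 to 4.98 against 1.98 to 10.6 summed CPM, with g*Spns1*-cKO mouse 1 the highest. Without that mouse, 4 hepatocyte markers and 1 proliferation marker passed as lower and 4 stellate cell markers as higher, and the counts of the other marker lists were the same.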

How the data were processed

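Liver RNA of 6 mice was analysed, 3 per group, grouped by the sample labels. The authors deposited unnormalized counts per gene. The submitters' processing notes name fastp, HISAT2 2.0.5 and featureCounts 1.5.0-p3, and strand use is not given in the sources used here. The authors also deposited FPKM values, a size-factor-scaled signal per group, and the log2 fold changes and p-values of their own comparison, none of which was used. Gene lengths are those deposited. Positions of the 10 genes equal GENCODE M21 (GRCm38).

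In R 4.3.3 and edgeR 4.0.16, genes passing filterByExpr were scaled by TMM and compared by the robust quasi-likelihood test without covariates. The study's text names no test for these counts. The smallest p of an exact permutation test with 3 mice a group is 0.1, whereas the p-values given here rest on edgeR's model. They set each group difference against the spread between the sampled mice, which edgeR moderates over all genes. Within each group the libraries differed by more than sampling noise. The intervals for *Npas2* pool the counts of the mice in a group, so they cover counting error only. They take each count as a separate molecule, although the reads carry no molecular identifiers. Alternatives were DESeq2 1.42.0, limma-voom (limma 3.58.1), other scalings, filters and gene sets, a threshold of 0.01, a replicate block and leaving out each mouse. Ratios without g*Spns1*-cKO mouse 1 were added after the data were seen, and that mouse was singled out by its clock gene values. The fit was tested on simulated data in which few genes changed, in equal numbers up and down. That setting lacks the large share of changed genes seen here, so it does not test the choice of scaling.

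Members and lists were chosen with earlier results of these data known. Named are *Spns1*, the 10 clock genes, 7 regulators chosen by role (*Nr1d1*, *Nr1d2*, *Tef*, *Hlf*, *Nfil3*, *Bhlhe40*, *Bhlhe41*), and up to 6 genes with the largest change past the threshold of each list of functions. *Prkab1*, *Nampt*, *Ddx3y* and *Xist* were named after their values were seen. A few genes this rule picks are not reported here. Marker lists are given by counts and summed CPM.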

Additional observations from a re-analysis of the deposited data

How the results depend on the processing

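The numbers of genes called higher moved most with the scaling, while single values also moved with mice left out. With library size alone, the median over all genes was 0.46 instead of 0.01 on the log2 scale, 7289 genes were called higher and 970 lower instead of 3286 and 3166, and *Clock*, *Per2*, *Cry1* and *Cry2* joined *Arntl* as higher, 5 clock genes in all. Other regulators were then 12 higher and 2 lower instead of 2 and 6, clock-controlled genes 4 and 5 instead of 2 and 8, and *Per1* (0.40), *Per3* (0.13), *Cry2* (0.38), *Hlf* (0.26), *Nfil3* (0.28) and *Bhlhe40* (0.17) turned positive, and the calls of *Spns1*, *Nr1d2*, *Bhlhe41*, *Csnk2b*, *Errfi1*, *Tsc22d3* and *Tat* were lost. With upper-quartile scaling 2 clock genes and 4 regulators were higher, and *Per1* (0.085) and *Cry2* (0.067) turned positive. Clock genes called higher were 3 with the filter of at least 1 count in any library, 2 with at least 10 counts in every library and 3 with DESeq2, instead of 1, because *Cry1*, *Per2* or *Npas2* passed as well. Under the first of these filters *Dbp* (adjusted p = 0.0712, edgeR) and *Usp2* (0.0736) lost their calls and *Per3* passed as lower (0.0481). At an adjusted p under 0.01, 1983 genes were higher and 1907 lower, with 1 clock gene lower (*Ciart*), regulators 1 higher and 3 lower, and 1 clock-controlled gene higher.

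Leaving out each mouse in turn gave 1 to 3 clock genes higher and 1 to 2 lower, regulators 1 to 3 higher and 3 to 7 lower, and clock-controlled genes 1 to 3 higher. Log2 fold changes then ranged from -0.35 to 0.14 for *Per1*, -0.14 to 0.034 for *Cry2*, -0.42 to 0.047 for *Hlf* and -0.40 to 0.062 for *Nfil3*. Replicate numbers did not pair the samples, since same-numbered deviations correlated at 0.037, 0.033 and -0.028. A replicate block gave 2 clock genes higher, *Cry1* among them (adjusted p = 0.0164, edgeR), and 1 regulator higher, without *Prkab1* (0.0508), and *Fosb* lost its call (0.0583). Of the 144 values of the clock genes under the alternatives, 117 kept their direction and side of the threshold, 7 fell short of it, 12 newly passed and 8 changed sign. The causes were not tested. *Arntl* with 35 to 40 counts in control libraries and *Npas2* with at most 2 are the clock genes whose levels depth limits.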
